A study of Mus musculus with 4 samples.

Results

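The comparison described here sets RNA bound to ribosomes against total RNA in mouse embryonic fibroblasts that carry the heterozygote label for Npm1. For each gene it is the log2 value on the polysome array minus the log2 value on the total RNA array, with 1 array on each side. It covers 7179 of the 12393 named genes on the array. Where several probe sets target a gene, the one with the highest average over the series' 4 arrays stands for it, and a gene counts as measured where its highest value over those arrays reached the median of all values, 7.53 on the log2 scale, called the floor. With 1 array a side there is no replicate spread, no difference has a replicate check, and no p-value was computed.

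Embryonic fibroblasts are connective tissue cells grown from mouse embryos. The series holds 4 of them as samples, 1 array each: total RNA and ribosome-bound RNA from cells labelled Npm1+/-, and the same pair from cells labelled Npm1+/+, called wild type below. All 4 carry the strain label C57/BJ6. Per the labels' protocols, sucrose gradient fractions were extracted with Trizol and a column kit, and the RNA was copied into cDNA, amplified with T7 RNA polymerase and labelled with biotin. How many embryos or cultures stand behind a label, which gradient fractions made up the ribosome-bound RNA, and whether both arrays of a genotype came from 1 culture are not given in the sources used here.

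A polysome is an mRNA carrying several ribosomes at once. In a sucrose gradient polysomes sediment below single ribosomes and free RNA, so an mRNA that is engaged by many ribosomes makes up a larger part of the heavy fractions than of total RNA. The mRNAs of ribosomal proteins and elongation factors start with a run of pyrimidines, the terminal oligopyrimidine (TOP) motif, and move into or out of polysomes together when growth signals change. Npm1 encodes nucleophosmin, which is abundant in nucleoli and acts in the assembly of ribosomes. The series' design text asks how the RNA on ribosomes is altered when Npm1 is deleted.

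Npm1 itself read 11.96 on the total and 12.84 on the polysome array under the heterozygote label, and 11.91 and 12.93 under the wild-type label. The values of the arrays labelled heterozygote were thus not lower by the amount that 1 missing copy would give, and where the probe set lies relative to the inactivated part is not known here. Directions below are therefore stated between arrays by their label. Npm1 was 0.88 higher in the polysome array under the heterozygote label and 1.02 higher under the wild-type label, and its other probe set gave 0.76 and 0.77. Eif2s3y, a Y-linked gene, read between 8.60 and 9.07 on the 4 arrays, and Xist, the RNA that coats the inactive X chromosome, at most 6.12.

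The array medians lay between 7.47 and 7.59, and 6706 and 6840 of the measured genes reached the floor on the total and polysome array. Of the 20 fibroblast markers 19 were on the array, and these 19 reached the floor on all 4 arrays. Spiked-in hybridisation controls, which are added after labelling, differed between the arrays by a median of 0.26 over 18 probe sets, with 17 above 0. A difference of this size was therefore present in material that did not come from the cells. Labelling controls differed by a median of -0.14 over 27 probe sets, all of which read below the floor on all 4 arrays, at most 6.88. The probe sets for the 3′ and 5′ ends of Actb differed by 0.02 on the total and 0.05 on the polysome array, and those of Gapdh by 0.12 and -0.02.

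The pair of arrays was close for most genes. The median gene was 0.07 higher in polysome RNA, and 78.5% of genes lay within 0.25 of the median gene. In polysome RNA, 29 genes (0.404% of the 7179) were higher by 2-fold or more and 26 (0.362%) were lower by that much. At 1.5-fold the counts were 161 higher (2.24%) and 97 lower (1.35%). Of the 55 genes past 2-fold, 52.7% were on the higher side, a split that was 34.9% when each array was centred on its median, 37.5% after quantile normalisation of the gene values, 35.9% after removal of a trend with level, and 38.7% relative to the median gene. Probe sets of the same gene disagreed by an SD of 0.24 in this difference, over 2700 genes with more than 1 probe set at the floor.

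**Figure D1:**
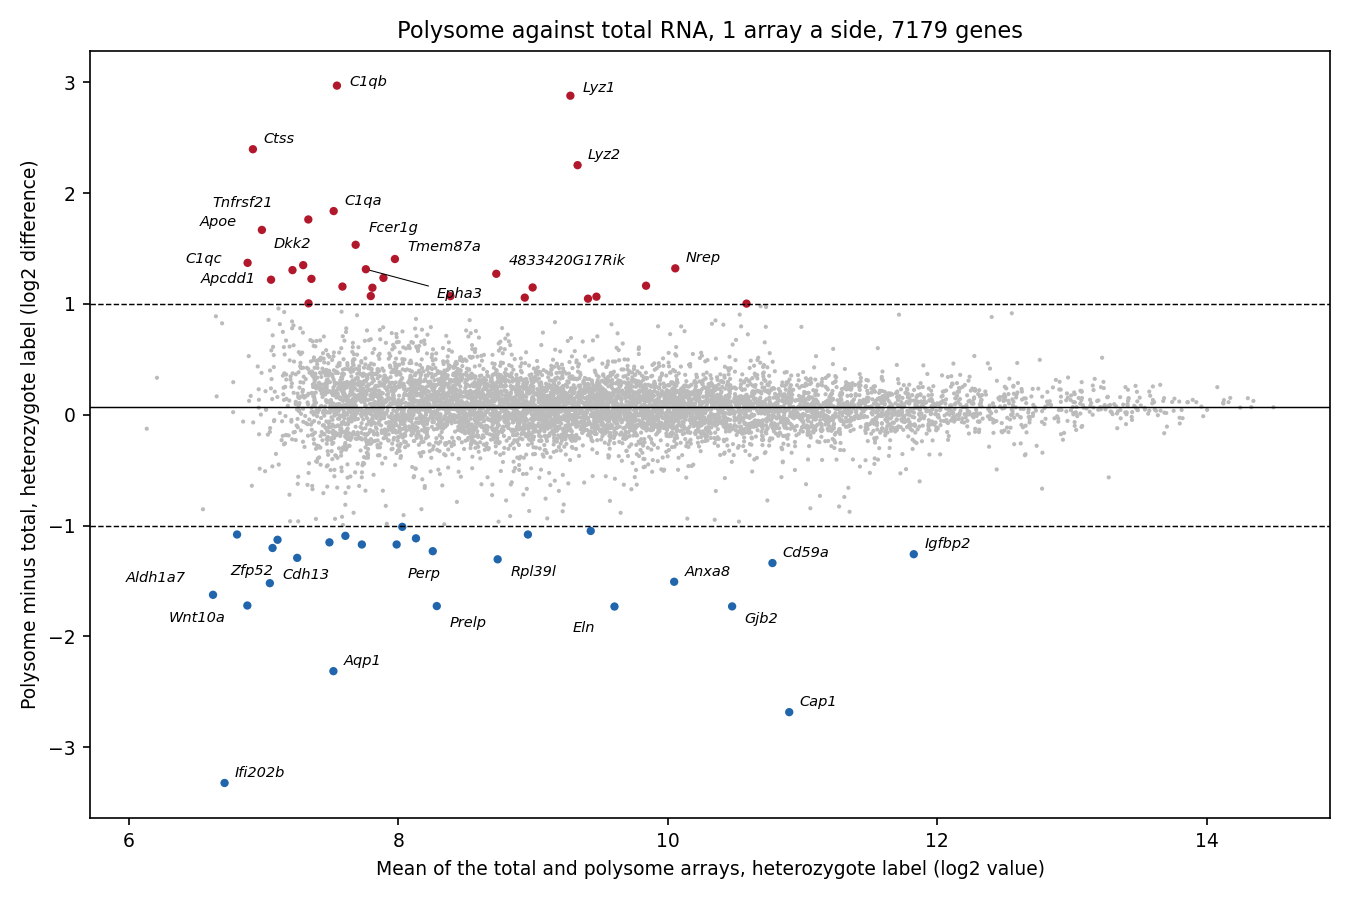
Each point is 1 of 7179 genes, placed by the mean of its log2 values on the total and polysome arrays under the heterozygote label (x axis) and by polysome minus total (y axis, log2 difference). The solid line is the median gene at 0.07, the dashed lines mark 2-fold, red points are the 29 higher and blue points the 26 lower genes, and the 15 largest each way are named. The cloud narrows to the right, and most of the coloured points lie at low levels.

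Large differences were concentrated among dim genes. Genes were split by mean level into 5 bins of near equal size. In the lowest bin, from 6.13 to 8.17, the SD over genes was 0.37 and 33 genes were past 2-fold. In the highest bin the SD was 0.20, 3 genes were past 2-fold, and all 3 were lower in polysome RNA. Of the 29 higher genes 18 read below the floor on the total array, and of the 26 lower genes 15 read below it on the polysome array. Aldh1a7 and Itga8 read below the floor on both heterozygote arrays and entered through wild-type total RNA. Each of the others entered only through the fraction where it was high and had to differ. These counts therefore describe the arrays, and the sizes of those folds are uncertain. Genomic span showed a small gradient: over 5 bins of span, the median difference was 0.06 in the bin of the shortest genes and 0.10 in that of the longest, and 13 of the 29 higher genes but 4 of the 26 lower ones lay in the shortest bin.

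The largest differences upward belonged to genes known from macrophages. C1qb, which encodes a chain of the complement protein C1q, read 6.06 in total and 9.03 in polysome RNA under the heterozygote label, a difference of 2.97, or 7.84-fold higher. On the arrays labelled wild type it read 5.98 and 8.42. Its other probe sets gave 2.37 and 2.05 under the heterozygote label, the latter at a probe set below the floor. C1qa, for another chain of C1q, read 6.60 and 8.44 (1.84 higher), and C1qc, for the remaining chain, 6.20 and 7.57 (1.37 higher). These 3 genes follow each other in the RefSeq gene order with no other protein-coding gene between them.

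The lysozyme genes, whose products cut bacterial cell walls, showed the same direction. Lyz2 read 8.20 and 10.46 under the heterozygote label, 2.25 higher in polysome RNA, and 7.59 and 9.82 under the wild-type label. It was above the floor on all 4 arrays. Lyz1, its neighbour in the gene order, read 7.84 and 10.72 (2.88 higher), with 3.21 at another probe set of the kind that can cross-hybridise and 0.05 at a probe set below the floor. Because the 2 genes are close paralogues, the probes may not separate them. Ctss, the lysosomal protease cathepsin S, read 5.72 and 8.12 (2.40 higher). Fcer1g, the signalling subunit of Fc receptors, read 6.92 and 8.45 (1.53 higher), and Apoe, a lipid carrier that macrophages secrete, 6.15 and 7.82 (1.67 higher). Ctss, Fcer1g and Apoe were below the floor in total RNA and entered through polysome RNA, so their folds are uncertain.

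The whole macrophage list did not move as 1 block. Of its 14 markers on the array 9 were measured. In polysome RNA 6 of them were at least 2-fold higher, beside 0.404% of all genes. C1qb, C1qa, C1qc, Ctss and Fcer1g among them were below the floor in total RNA under both labels. They entered through polysome RNA and had to differ, so this count is no result about the list. Over the 14 the median difference was 0.57, beside 0.07 for all genes, and over the 4 arrays 6 markers reached the floor in polysome RNA alone. Csf1r, the receptor that macrophages need to survive, read 7.84 and 7.62, a difference of -0.22. Its other probe sets gave 0.26 and 0.33, the latter at a probe set below the floor. Laptm5, a lysosomal protein of leukocytes, differed by 0.04, but by 0.44 at another probe set and by 1.66 at a probe set below the floor. Cd53 differed by 0.52, and the pan-leukocyte gene Ptprc read 4.87 and 4.55, far below the floor. Summed on the linear scale over the 14 markers, the signal was 1663 in total and 4178 in polysome RNA under the heterozygote label, and 1373 and 3196 under the wild-type label. Of 35 further macrophage and leukocyte genes 7 were measured, and Lyz1 and Apoe were the 2 past 2-fold, beside 0.25 for Ctsc, 0.03 for Fcgr2b, -0.06 for Cd3e and -0.13 for Lgals3. In RNA from a mixed culture, a change in the number of cells of a type and a change in RNA per cell cannot be told apart, and whether both fractions held the same cells was not tested.

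**Figure D2:**
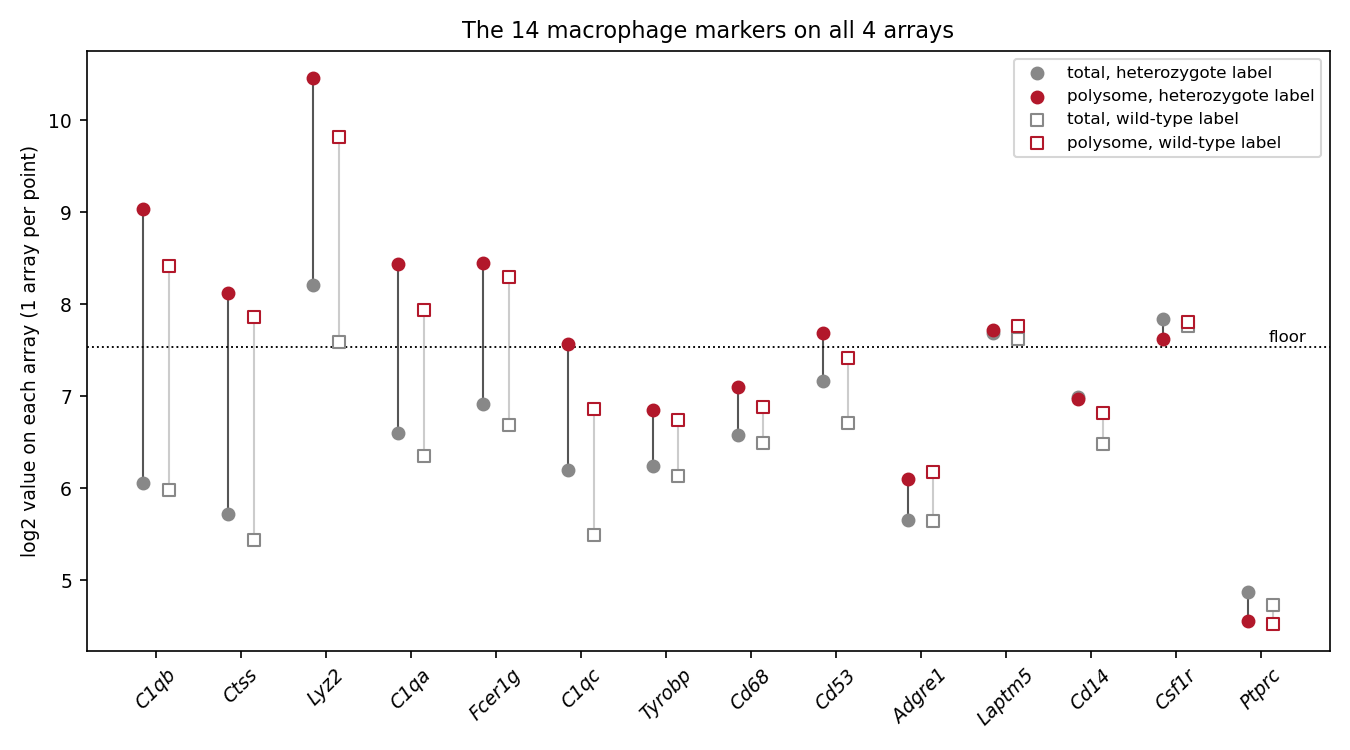
The 14 macrophage markers are ordered by their polysome minus total difference under the heterozygote label. The y axis is the log2 value on each array, with circles for the heterozygote label, squares for the wild-type label, grey for total and red for polysome RNA, 1 array per point, and the dotted line is the floor at 7.53. C1qb, Ctss, Lyz2, C1qa, Fcer1g and C1qc show wide gaps under both labels, whereas those of Laptm5, Cd14 and Csf1r are small under the heterozygote label.

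Markers of other cell types were few above the floor. Measured were 4 of 14 endothelial markers, 1 of 12 epithelial, 1 of 7 adipocyte, 3 of 10 skeletal muscle, 3 of 11 neural, 1 of 8 cartilage and bone, and 0 of 7 erythroid markers. Flt1, a receptor for vascular growth factors, differed by 0.72 at the probe set that stands for it and by 1.24 and 1.14 at its other probe sets, the former below the floor on both heterozygote arrays. Under the wild-type label these were 0.64, 1.58 and 1.65. Kdr, another such receptor, differed by -0.37. Krt19, a keratin of simple epithelia, differed by -0.66, and Stmn2, a neuronal microtubule regulator, by -0.38. By the probe set that stands for each gene none of their measured members was past 2-fold, whereas Flt1 was past it at its other probe sets.

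Tnfrsf21, Dkk2, Apcdd1 and Epha3 read below the floor in total RNA and reached it in polysome RNA. Tnfrsf21, the death receptor DR6, read 6.45 and 8.21 (1.76 higher), with 0.61 at a probe set below the floor. Dkk2, a secreted modulator of Wnt receptors, read 6.62 and 7.97 (1.35 higher), and Apcdd1, a membrane inhibitor of Wnt signalling, 6.56 and 7.87 (1.31 higher), with 0.76 to 0.82 at probe sets below the floor. Epha3, an ephrin receptor kinase, read 7.10 and 8.42 (1.31 higher), with 1.18 at another probe set and 1.02 at a probe set below the floor. The sizes of these folds are uncertain for that reason. The wild-type label gave 1.62 for Tnfrsf21, 1.68 for Dkk2, 1.30 for Apcdd1 and 1.28 for Epha3.

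Other higher genes read just below the floor or above it in total RNA. Nrep, a small protein linked to neuronal regeneration and to fibroblast contraction, read 9.39 in total and 10.72 in polysome RNA (1.32 higher), and 9.16 and 10.56 under the wild-type label. Its other probe set gave 1.16. 4833420G17Rik, a gene without a descriptive name, read 8.09 and 9.36 (1.27 higher). Tmem87a, a membrane protein of the Golgi, read 7.27, just below the floor, and 8.68 (1.41 higher). Under the wild-type label 4833420G17Rik differed by 0.99 and Tmem87a by 1.38. Decorin (Dcn), the ribosomal protein gene Rps6, the binding protein gene Igfbp3 and the respiratory subunit gene Ndufs5 were also past 2-fold and above the floor in both fractions, and are described with their groups.

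For completeness, the other genes past 2-fold upward were Tppp3 (1.24), Plxnd1 (1.23), Tceanc2 (1.22), Tfpi2 (1.16), Ctla2a (1.15), Ch25h (1.15), Ldb2 (1.07), Gng11 (1.07), Adamts10 (1.05) and Nhsl1 (1.01). Tfpi2, an inhibitor of serine proteases, and Gng11, a G protein subunit, lie 1 protein-coding gene apart. The semaphorin receptor gene Plxnd1 and the cofactor gene Ldb2 were below the floor in total RNA, at 6.74 and 7.26. So were Tppp3 (7.27), Tceanc2 (6.45), Tfpi2 (7.01), Ch25h (7.24) and Nhsl1 (6.83), and the folds of all these genes are uncertain. The wild-type label gave a positive difference for every one of the 29 higher genes, from 0.56 for Ldb2 to 3.29 for Lyz1, and the 2 comparisons use different arrays. Their agreement carries no test, since any difference in handling between the fractions would enter both.

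**Figure D3:**
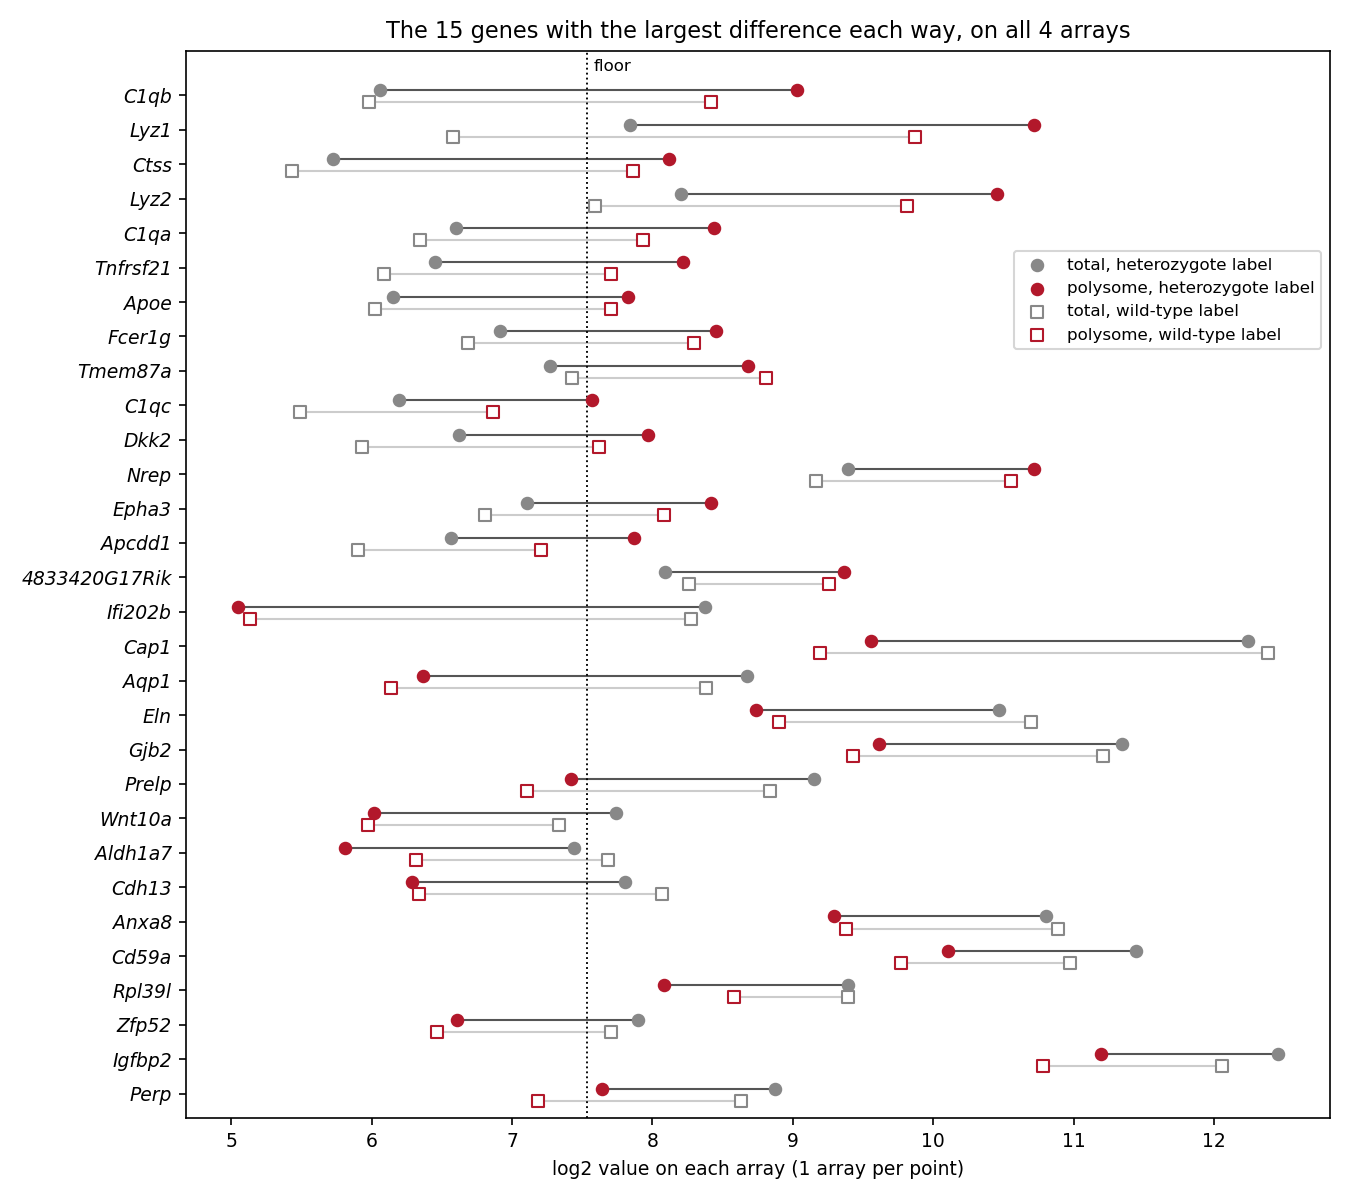
The 15 genes with the largest polysome minus total difference each way under the heterozygote label, largest first in each direction. The x axis is the log2 value on each array, with circles for the heterozygote label, squares for the wild-type label, grey for total and red for polysome RNA, 1 array per point, and the dotted line is the floor at 7.53. Red lies right of grey for the upper 15 genes and left of grey for the lower 15 under both labels.

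Downward, the largest difference was that of Ifi202b, an interferon-inducible gene of the p200 family of DNA-binding proteins. It read 8.37 in total and 5.05 in polysome RNA, 10.0-fold lower at -3.32, and 8.27 and 5.14 under the wild-type label. Both polysome values lie far below the floor, so the fold is uncertain. Ifi202b was the 1 member of its family measured among 5 on the array. The 16 measured interferon-stimulated genes had a median of 0.10 and a range from -0.29 to 0.26, and 0 of them were past 1.5-fold.

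Cap1 gave the largest difference among genes well above the floor in both fractions. It encodes cyclase-associated protein, which recycles actin monomers from filaments. Cap1 read 12.24 in total and 9.56 in polysome RNA under the heterozygote label (-2.68), and 12.39 and 9.20 under the wild-type label (-3.19). Its other probe set gave -2.84 and -3.22, so both probe sets placed it low on both polysome arrays. The other 35 measured genes of actin turnover did not share this: none of the 36 on the list apart from Cap1 was past 1.5-fold, their median with Cap1 included was 0.04, and the paralogue Cap2 differed by 0.37.

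Several lower genes encode junction, channel and surface proteins. The list of cadherins, connexins and channels also holds the adhesion molecules Selp and Vcam1. Of its 16 measured genes 4 were at least 2-fold lower and 0 higher, beside 0.362% of all genes lower. The list's median was 0.05, and -0.05 to 0.45 over the alternatives. Aqp1, Cdh13 and Selp read below the floor in polysome RNA and entered through total RNA. They had to differ, so their folds are uncertain and the count is no result about the list. Aqp1, a water channel, read 8.68 and 6.36 (-2.31), and Gjb2, the gap junction protein connexin 26, 11.34 and 9.61 (-1.73). Gjb2 was above the floor on all 4 arrays, with 11.21 and 9.43 under the wild-type label. Cdh13, a cadherin held by a lipid anchor, read 7.81 and 6.29 (-1.52), and P-selectin (Selp) 7.67 and 6.54 (-1.13), the latter with -1.83 under the wild-type label. On the same list Gjb5 differed by -0.94 and Aqp5 by -0.67, while Cdh3 and Vcam1 were higher by 0.62 and 0.51. The members at the ends of this list thus lay on both sides.

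The other genes of the 15 largest downward were of several kinds. Anxa8, a membrane-binding annexin, read 10.80 and 9.29 (-1.51), with -1.33 at its other probe set. Cd59a, a lipid-anchored inhibitor of complement, read 11.45 and 10.11 (-1.34), with -1.27 at its other probe set. Both were above the floor on every array. Perp, a p53 target found in desmosomes, read 8.87 and 7.64 (-1.23). Wnt10a, a Wnt ligand, read 7.74 and 6.02 (-1.72), and Aldh1a7, an aldehyde dehydrogenase, 7.44 and 5.81 (-1.63), both below the floor in polysome RNA. Aldh1a7 was below it in total RNA as well. Zfp52, a zinc finger gene, read 7.90 and 6.60 (-1.29), also below the floor in polysome RNA, with -0.63 at a probe set below the floor. The folds of Wnt10a, Aldh1a7 and Zfp52 are therefore uncertain.

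The remaining lower genes were Serping1 (-1.20), Hyi (-1.17), Nell2 (-1.17), Ppbp (-1.15), Ptges (-1.12), Npnt (-1.09), Chst1 (-1.08), Itga8 (-1.08), Rcan2 (-1.05) and Slc2a10 (-1.01). Except for Ptges, Chst1 and Rcan2, these read below the floor in polysome RNA under the heterozygote label, so their folds are uncertain. Itga8, at 7.34, was below it in total RNA as well. Npnt encodes nephronectin and Itga8 the integrin chain that binds it. Serping1 encodes the inhibitor of the C1 proteases and Ptges a prostaglandin E synthase. The glucose transporter gene Slc2a10 gave -0.26 at its other probe set. At their other probe sets Rcan2 gave -1.43 and Nell2 -0.68. Under the wild-type label all 26 lower genes were negative, from -3.19 for Cap1 to -0.44 for Hyi. At the edge of 2-fold, Ndufs5 (1.00) and Nhsl1 (1.01) lay just inside and Fibin (0.98) and Akap12 (0.97) just outside on the higher side. Slc2a10 (-1.01) and Rcan2 (-1.05) lay just inside and Fam220a and Hcrt, both at -0.99, just outside on the lower side.

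The mRNAs of the ribosome itself were distributed almost like the median gene. The 22 measured small-subunit protein genes had a median of 0.07, with 11 above and 11 below the median gene, and the 23 large-subunit genes a median of 0.10, with 14 above and 9 below. Rps6 was the 1 small-subunit gene past 1.5-fold, and no large-subunit gene was. Their start sites are shown because the TOP motif, a C followed by pyrimidines at the first base of the mRNA, is the feature that groups these mRNAs. The windows run from 10 bases before to 20 after the start annotated in RefSeq (GRCm38.p6), on the gene's strand, and capitals mark a C within 5 bases of that start with the pyrimidines, at least 4, that follow it.
Rps6, chr4:86857348-86857377, minus strand: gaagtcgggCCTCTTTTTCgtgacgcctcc
Rpl22l1, chr3:28805498-28805527, plus strand: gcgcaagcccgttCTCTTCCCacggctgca
Rps9, chr7:3704031-3704060, plus strand: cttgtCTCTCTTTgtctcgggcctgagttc
Rps27, chr3:90213629-90213658, minus strand: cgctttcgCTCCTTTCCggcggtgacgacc
Rpl14, chr9:120571507-120571536, plus strand: ggccctCTCTCTTCTCgctgagcgccgcca
Rpl27a, chr7:109519185-109519214, plus strand: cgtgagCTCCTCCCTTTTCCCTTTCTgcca
They were taken from both ends of the range of ribosomal protein and other TOP genes with such a run, and genes with a like run differed in both directions: Rps6 by 1.07, Rpl22l1 by 0.27 and Rps9 by 0.24, against -0.21 for Rps27, -0.14 for Rpl14 and -0.08 for Rpl27a. Rpl14 had the opposite sign under the wild-type label, at 0.43, and Rpl27a gave 0.31 at a probe set below the floor. Such a run lay near the annotated start in 10 of 19 small-subunit and 11 of 21 large-subunit genes with a window. The share was 24.1% of the 5864 measured genes with a window and, counted per window, 18.3% of all 32851 windows. Exactly at the annotated start it lay in 5 small-subunit and 4 large-subunit genes, beside 3.14% of those measured genes. Over all 5864 measured genes with a window, the median difference was 0.08 for the 1413 with a run and 0.07 for the rest. A match is a description of the letters near an annotated start and not a mapped start of these mRNAs.

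Rps6, the small-subunit protein phosphorylated by the S6 kinases, was the exception among ribosomal protein genes. It read 7.85 in total and 8.92 in polysome RNA under the heterozygote label, and 8.20 and 9.31 under the wild-type label. Its other probe set, below the floor, gave 0.20 and -0.19. Rpl22, at 11.67 and 11.26, was the lowest of the large-subunit genes with -0.41, but its other probe set, above the floor, gave 0.14, and 0.38 under the wild-type label. Rpl39l, a paralogue of Rpl39 that is not on these lists, read 9.39 and 8.09 (-1.30) and 9.39 and 8.58 under the wild-type label (-0.81), while Rpl39 differed by 0.24. Near-identical copies of ribosomal protein genes are common in the genome, so the values of single members are uncertain.

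Other TOP mRNAs stood slightly higher. Of 19 measured, 15 were above the median gene and the median was 0.13, with Npm1 at 0.88, the initiation factor Eif4b at 0.35, the snoRNA host gene Snhg1 at 0.32 and the elongation factor Eef2 at 0.19. Npm1 was the 1 member past 1.5-fold. The 45 measured initiation and elongation factors gave a median of 0.10. Eif3a, the largest subunit of the factor that recruits the small subunit, read 10.93 and 11.52 (0.59), but its other probe sets gave 0.02, 0.17 and 0.36. Eif5b, which joins the subunits, differed by 0.35 and Eif2s2, a subunit of the factor that delivers the first tRNA, by 0.32, and by -0.02 to 0.79 at its other probe sets that reached the floor.

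The mRNAs of the amino acid response lay above the median gene more often than below. ATF4 is a transcription factor that is made when amino acids run short, and its own mRNA and several of its targets carry upstream reading frames. Of 25 measured genes of the response, 19 were above the median gene, 4 were past 1.5-fold upward and 0 downward, beside 2.24% and 1.35% of all genes, and the median was 0.25, or 0.15 to 0.25 over the processing alternatives. Ddit3, the stress factor CHOP, read 10.17 and 10.84 (0.68), and 10.19 and 11.00 under the wild-type label. Cth, which makes cysteine, read 9.32 and 9.92 (0.60), and Slc7a3, a carrier of cationic amino acids, 7.28 and 7.88 (0.60). Atf3 differed by 0.63 under the heterozygote and by -0.11 under the wild-type label.

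The 20 aminoacyl-tRNA synthetases, which charge tRNAs, had a median of 0.21, with 15 above the median gene and none past 1.5-fold. Lars (0.40), Wars (0.39), Gars (0.34) and Eprs (0.31) led them. The 20 mRNAs with regulatory upstream reading frames had a median of 0.22, and beside Ddit3 the largest values were 0.52 for Ankrd1, 0.50 for Cebpa and 0.36 for Chka. Each of these differences was below 2-fold.

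Smaller classes of regulated mRNA gave few differences past 1.5-fold. Slc40a1, the iron exporter ferroportin, whose mRNA carries an iron-responsive element, differed by 0.67 from values below the floor on both arrays, while Tfrc, the transferrin receptor, differed by 0.19 and Fth1, the ferritin heavy chain, by 0.07. Among 20 mRNAs with reported internal ribosome entry Ccnd1, cyclin D1, read 12.17 and 11.57 (-0.60), with -0.34 and -0.10 at its other probe sets, and Myc differed by 0.22. The 8 polyamine pathway mRNAs had a median of 0.13, with Azin1, which counters antizyme, at 0.28 and the antizyme gene Oaz1 at 0.27. The 16 selenoprotein mRNAs had a median of 0.06, with Selenop at 0.43 and Gpx4 at 0.16.

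Genes of ribosome assembly, the process in which nucleophosmin acts, stood slightly above the median gene. Of 64 measured, 41 were above it, the median was 0.12, and Npm1 alone was past 1.5-fold. Nop14 (0.52) and Ppan (0.51), both needed to process ribosomal RNA, and Tsr3 (0.45), which modifies it, followed. Genes of the box C/D particles, which guide methylation of ribosomal RNA, had a median of 0.08 over 9 genes, and those of the H/ACA particles, which guide pseudouridylation, 0.13 over 9. Under the wild-type label these medians were 0.29 and 0.25, a difference that cannot be tested with 1 array each. Telomere maintenance genes had a median of 0.22 over 10 genes, with the exonuclease gene Dclre1b at 0.38 and the shelterin gene Tinf2 at 0.27.

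As a group, transcripts that are not translated into a long protein were no lower in the polysome array under the heterozygote label. Of 10 measured nuclear or non-coding RNAs 8 were above the median gene, and the median was 0.17. Malat1, which is held in nuclear speckles, read 12.59 on both arrays, with a difference of 0.00, and differed by 0.09 to 0.40 at its other probe sets. Under the wild-type label all its probe sets were negative, from -0.42 to -0.14. Neat1, the scaffold of paraspeckles, differed by -0.07, and by -0.47 under the wild-type label. The snoRNA host genes Snhg5 and Gas5, whose spliced transcripts are known to associate with ribosomes, differed by 0.59 and 0.12, with 0.42 at another probe set of Gas5. The imprinted RNAs Meg3 and Rian differed by 0.25 and 0.22 under the heterozygote label and by -0.10 and -0.03 under the wild-type label. The 23 measured genes that RefSeq classes as lncRNA had a median of 0.12, beside 0.07 for 7134 protein-coding genes. Probe sets for 18S ribosomal RNA differed by a median of 0.23 over 3 probe sets, all of which read below the floor on every array.

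Genes of mitochondria and metabolism lay in a narrow range. Mitochondrial ribosomal proteins, 75 genes, had a median of 0.04, ran from -0.25 to 0.30, and none was past 1.5-fold. Complexes II to V had a median of 0.04 over 39 genes, and complex I a median of -0.01 over 36, with 26 below the median gene. Ndufs5, an accessory subunit of complex I, was the exception, at 10.08 and 11.09 under the heterozygote label (1.00) and 9.86 and 10.95 under the wild-type label (1.09). The medians under the wild-type label were 0.19 for mitochondrial ribosomal proteins and 0.19 for complex I, beside 0.14 for all genes there. Genes of cholesterol synthesis and uptake had a median of -0.03, with 16 of 20 below the median gene, the isomerase Idi1 at -0.21 and the reductase Dhcr7 at 0.40. Among glycolytic genes Pfkp, a phosphofructokinase, differed by 0.48, or by 0.06 at its other probe set, and Ldhb, a lactate dehydrogenase, by -0.46.

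**Figure D4:**
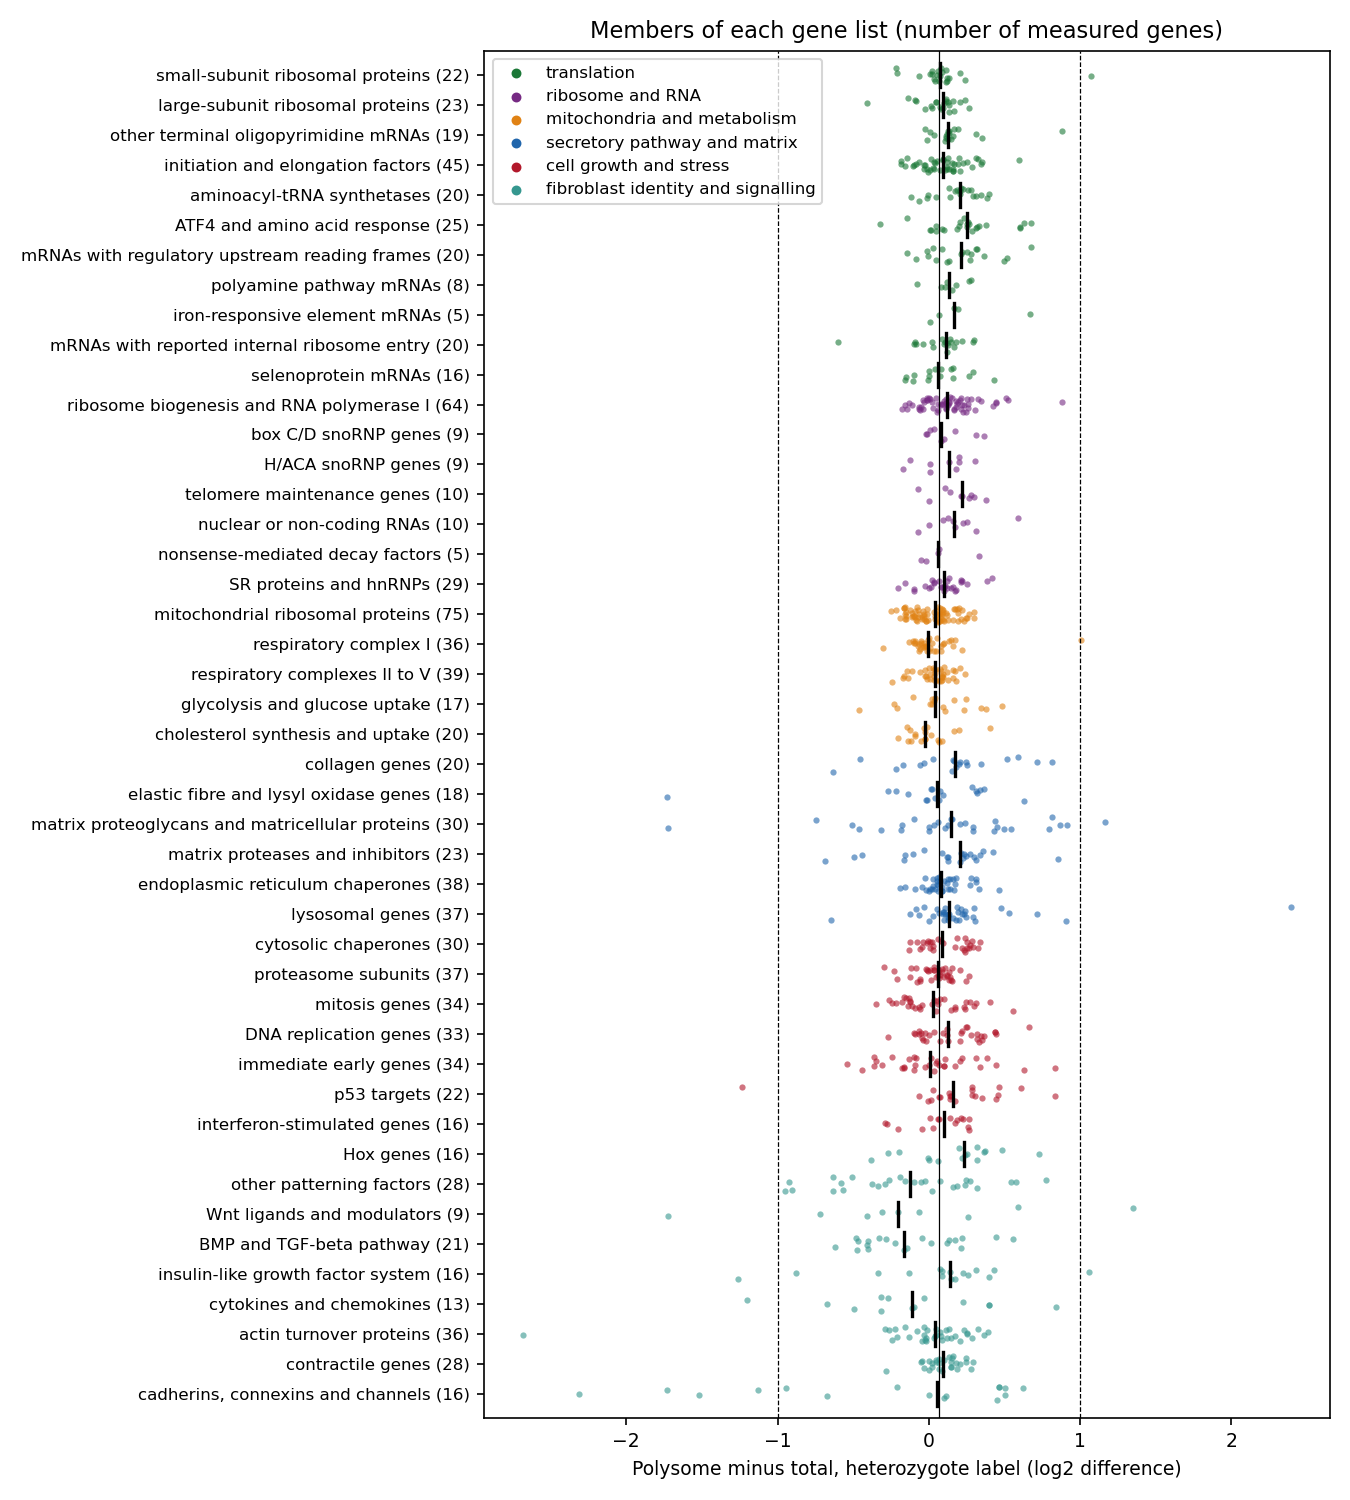
Every measured member of each gene list with at least 5 measured genes is a point at its polysome minus total log2 difference under the heterozygote label (x axis), with jitter on the vertical for legibility and colours for the kind of list. Black bars are list medians, the solid line is the median gene at 0.07 and the dashed lines mark 2-fold. Lists of the translation and mitochondrial machinery are narrow, and lists of matrix, signalling and surface proteins are wide.

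Extracellular matrix genes, by contrast, spread widely, and members of 1 structure stood at both ends. Decorin (Dcn), a small proteoglycan that binds collagen, read 9.26 in total and 10.42 in polysome RNA (1.16), and 9.03 and 10.40 under the wild-type label. Prelp, another small proteoglycan of the same repeat family, read 9.15 and 7.42 (-1.73), and 8.83 and 7.10 under the wild-type label. Both polysome values of Prelp lie below the floor, so its fold is uncertain. Under the wild-type label Dcn differed by 1.37 and Prelp by -1.73. Prelp gave -0.86 at its other probe set. The 30 measured matrix proteoglycans and matricellular proteins had a median of 0.15. Of them 5 were past 1.5-fold upward and 2 downward, beside 2.24% and 1.35% of all genes. Postn, periostin, read 12.09 and 13.01 (0.92), Vcan, versican, 7.70 and 8.56 (0.86), and Thbs2, thrombospondin 2, 9.17 and 9.99 (0.82). The other probe sets of Vcan gave 0.96 and 0.75 and that of Thbs2 0.73, whereas asporin (Aspn, 0.80) gave 0.24 at its other probe set.

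Elastin (Eln), the core of elastic fibres, read 10.47 and 8.74 under the heterozygote label (-1.73) and 10.70 and 8.90 under the wild-type label (-1.79), with -0.73 and -0.80 at its other probe set. The proteins that surround it did not share its position. Of 18 measured elastic fibre and lysyl oxidase genes, Eln was the 1 at least 1.5-fold lower, and the microfibril genes Mfap4, Mfap5 and Mfap2 were higher by 0.63, 0.36 and 0.32. The list's median was 0.05.

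The 20 measured collagen genes had a median of 0.17, and none was past 2-fold. At 1.5-fold 3 were higher and 1 lower, beside 2.24% and 1.35% of all genes. Col11a1 read 10.01 and 10.82 (0.81), with 0.75 at another probe set, and Col18a1, the source of endostatin, differed by 0.71 and by 0.90 under the wild-type label. Col2a1, the main collagen of cartilage, read 9.99 and 9.36 (-0.63). The abundant fibrillar collagens of fibroblasts lay between these, with Col1a1 at 0.25, Col1a2 at 0.15 and Col3a1 at 0.51. Another probe set of Col1a1 gave -0.21 and that of Col3a1 0.77. Among 23 matrix proteases and inhibitors, with a median of 0.21, the gelatinase Mmp9 (0.86, below the floor on both arrays, as was a probe set at 1.19) and the urokinase receptor Plaur (-0.69) stood at the ends. The inhibitor Timp3 differed by -0.49 and Mmp2, another gelatinase, by -0.44.

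**Figure D5:**
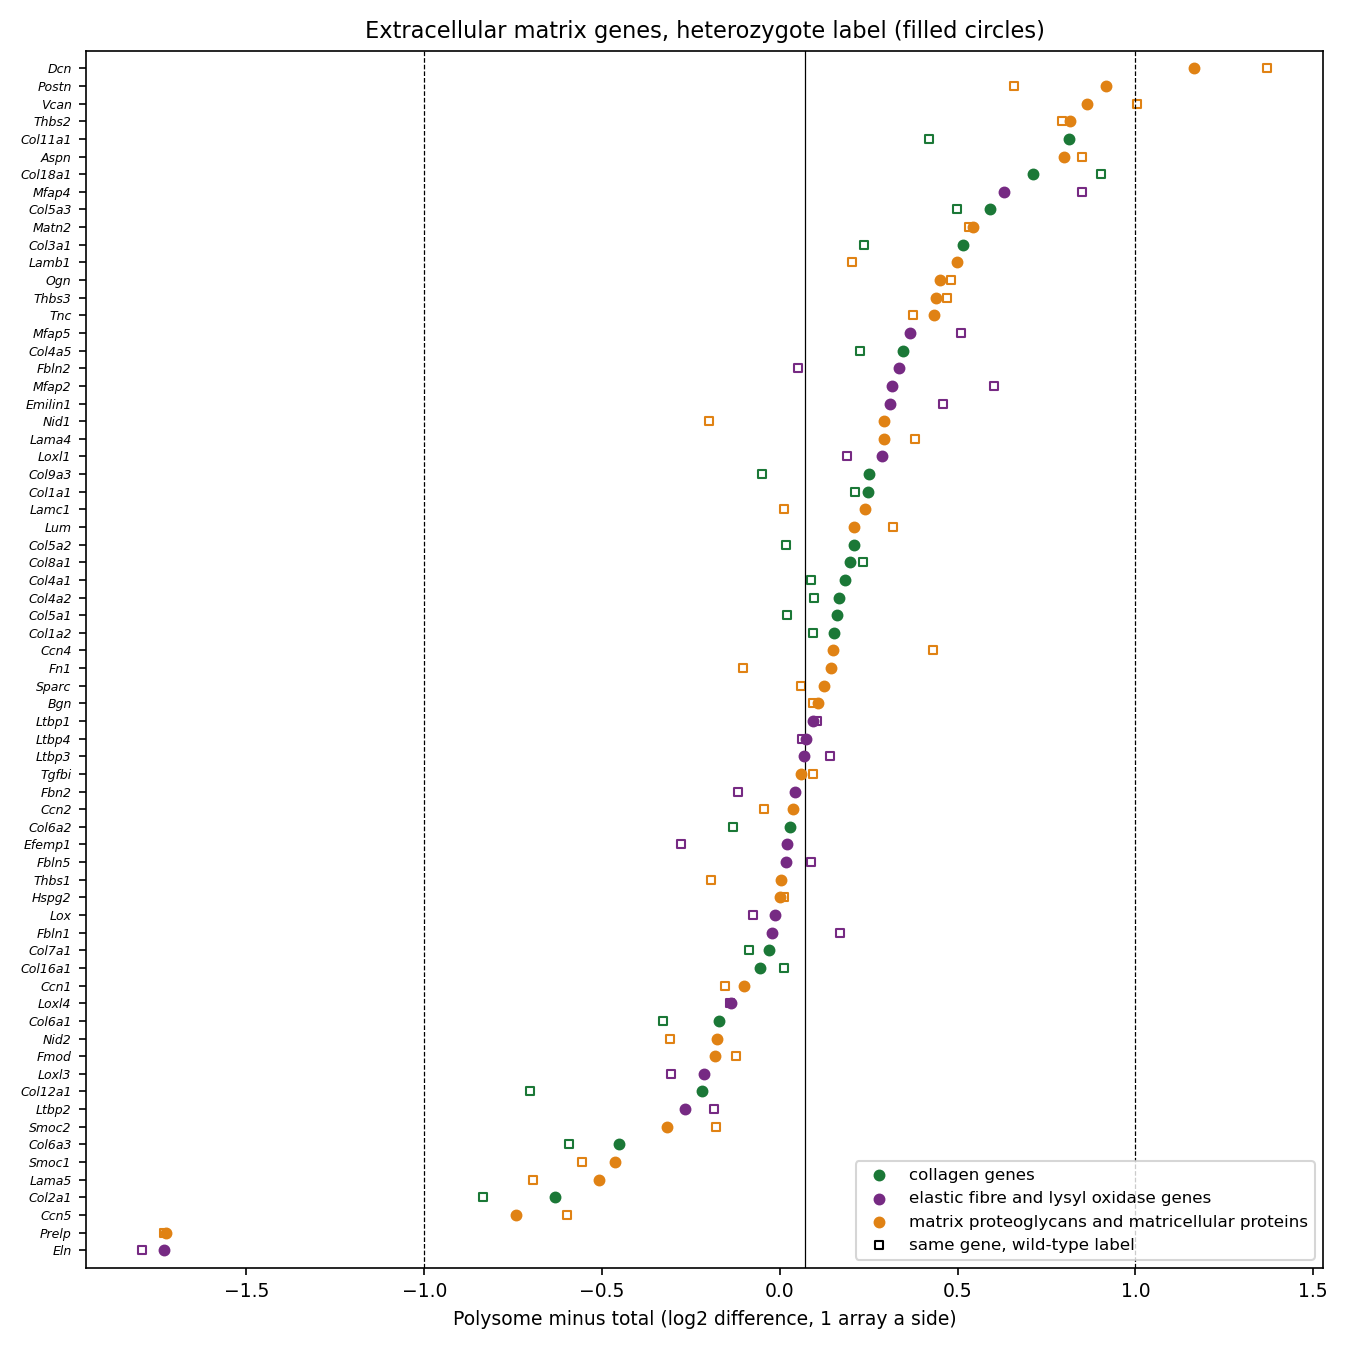
Measured genes of collagens (green), elastic fibres and lysyl oxidases (purple) and matrix proteoglycans and matricellular proteins (orange), ordered by polysome minus total log2 difference under the heterozygote label (filled circles, x axis). Open squares give the same gene under the wild-type label, the solid line is the median gene at 0.07 and the dashed lines mark 2-fold. Dcn lies past 2-fold on the right and Prelp and Eln on the left under both labels.

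Genes of the secretory and lysosomal compartments were listed separately. The 38 measured chaperones and modifying enzymes of the endoplasmic reticulum had a median of 0.08, ran from -0.19 to 0.46 and held no gene past 1.5-fold, with the disulphide isomerase Pdia4 at the top. The 37 lysosomal genes had a median of 0.14, with 28 above the median gene. Beside Ctss, the lysosomal membrane receptor Scarb2 read 10.08 and 10.99 (0.90) and the mannosidase Manba 6.71 and 7.43 (0.72, both below the floor). Scarb2 gave 0.29 at its other probe set. The galactosidase Gla, at 8.52 and 7.88, differed by -0.64, but its other probe set, below the floor on both heterozygote arrays, gave 0.45. Under the wild-type label these were -0.59 and 0.52.

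The insulin-like growth factor binding proteins, which hold these growth factors outside the cell, split by member. Igfbp3 read 8.41 and 9.47 under the heterozygote label (1.06) and 7.87 and 9.30 under the wild-type label (1.43). Igfbp2 read 12.45 and 11.20 (-1.26), and 12.06 and 10.78 under the wild-type label. Igfbp4 read 11.79 and 10.91 (-0.88), with -0.69 to -1.17 at its other probe sets, and Igfbp5 9.32 and 8.99 (-0.34). Under the wild-type label Igfbp4 read 11.44 and 10.61. The ligand genes Igf1 and Igf2 differed by -0.13 and 0.15 and the receptor genes Igf1r and Igf2r by 0.08 and 0.43, and the list's median over 16 genes was 0.14.

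The lists with the lowest medians, among those with at least 5 measured genes, were Wnt ligands and modulators, the BMP and TGF-beta pathway, and patterning factors outside the Hox clusters. The 21 measured genes of the BMP and TGF-beta pathway had a median of -0.16, with 14 below the median gene, and 0 were past 2-fold. Targets that answer BMP signals were among the low members: Smad6, an inhibitory SMAD, read 9.57 and 8.95 (-0.62), Id2 9.23 and 8.74 (-0.48) and Id4 8.61 and 8.13 (-0.48). Id1 and Id3, of the same family of transcriptional inhibitors, differed by -0.41 and -0.40. Bmp1, which is a procollagen protease and no BMP ligand, differed by 0.56, and by 1.15 at another probe set. The median stayed between -0.27 and -0.14 over the alternatives.

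The 28 measured patterning factors outside the Hox clusters had a median of -0.13, which ran from -0.24 to -0.01 over the alternatives. Past 1.5-fold were 5 downward and 1 upward, beside 1.35% and 2.24% of all genes. Prrx2, a homeobox factor of limb and face mesenchyme, read 10.82 and 9.87 (-0.95), and 10.89 and 9.92 under the wild-type label. Lhx9 read 8.04 and 7.12 (-0.92) and Six2 8.49 and 7.59 (-0.91). Lhx9, counted among the 5, was below the floor in polysome RNA and entered through total RNA, so its fold is uncertain. Its other probe set, below the floor, gave 0.21. Zic1, a zinc finger factor, was 0.78 higher. The 16 measured Hox genes, which set position along the body axis, had a median of 0.23, between 0.13 and 0.36 over the alternatives. Hoxc8 read 10.23 and 10.96 (0.73) and Hoxb9 8.12 and 8.61 (0.48), and Hoxa10 differed by -0.38.

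The 9 measured Wnt ligands and modulators had a median of -0.21 with members on both sides: besides Dkk2 and Wnt10a, Wnt5a was 0.59 higher, and the Wnt-binding Sfrp1 and Sfrp4 and the Dickkopf relative Dkk3 differed by -0.72, -0.31 and -0.41. The other probe sets of Sfrp1 gave -0.32, -0.13 and -0.06. The 13 measured genes on the list of cytokines and chemokines had a median of -0.11. That list also holds the protease inhibitor gene Serping1 (-1.20), its 1 member past 2-fold. Il6, an inflammatory cytokine with an unstable mRNA, read 6.79 and 7.63 (0.84), below the floor in total RNA, and the chemokine Cxcl14 10.07 and 9.39 (-0.67). The other probe set of Cxcl14, above the floor, gave -1.41, and -1.32 under the wild-type label, past 2-fold. Kitl, the ligand of the Kit receptor, differed by -0.50.

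Fibroblast markers had a median of 0.15 over 19 genes. Past 1.5-fold were 4 upward and 0 downward, beside 2.24% and 1.35% of all genes. The 4 were Dcn, Postn, Fap and Pdgfrb. Fap, a surface protease, read 8.10 and 8.96 (0.85) and the receptor gene Pdgfrb 10.16 and 10.80 (0.63). S100a4, a calcium-binding protein used as a fibroblast marker, read 13.55 and 12.99 (-0.57). Their summed linear signal was 143471 in total and 159906 in polysome RNA.

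Growth and stress genes held few outlying members. Gadd45a, a growth arrest gene induced by p53, read 8.75 and 9.58 (0.84), and the death receptor gene Fas differed by 0.61, while Perp stood at the low end of the 22 p53 targets, whose median was 0.16. Immediate early genes had a median of 0.01 over 34 genes, with Fosl1, a subunit of AP-1, at -0.54. Replication genes had a median of 0.13 over 33 genes and mitosis genes 0.03 over 34, with Dut, which removes dUTP, at 0.66 and the mitotic kinesin gene Kif20a at 0.56. Proteasome subunits (median 0.06 over 37) and cytosolic chaperones (0.09 over 30) held none past 1.5-fold, nor did the 28 contractile genes (0.09).

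Some of the large differences fell on genes known to vary between mouse strains. Of the 7 measured genes on that list, Ifi202b and Cd59a were at least 2-fold lower in polysome RNA, beside 0.362% of all genes. Ifi202b was below the floor in polysome RNA under both labels and entered through total RNA. It had to differ, so this count is no result about the list. Next by size were Glo1, a glyoxalase whose gene copy number varies, and Nnt, a mitochondrial transhydrogenase that carries a deletion in the C57BL/6J substrain. Glo1 read 11.26 and 12.17 under the heterozygote label (0.90) and 10.90 and 12.07 under the wild-type label (1.16), and its other probe sets gave 1.16 and 1.02 under the heterozygote label. Nnt read 8.45 and 9.14 under the heterozygote label (0.69) and 9.96 and 9.79 under the wild-type label (-0.16). Its other probe set gave 0.20 and -0.33 under these labels. Alad differed by -0.17, Ide by -0.07 and Wdfy1 by -0.05, but the other probe sets of Ide and Wdfy1 gave 0.17 to 0.45. All 4 samples carry 1 strain label, and whether the arrays share 1 genetic background was not tested.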

How the data were processed

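Per the labels, RNA of 4 samples, 1 per group, was hybridised to 1 array each. The values are the deposited table of log2 values, 1 per probe set and array. Per the submitters' processing notes they were made with R 3.4.3, affy 1.56.0 and RMA, which corrects background, normalises between arrays and summarises probes. Its settings and the genome build are not given in the sources used here. Normalisation sets arrays to like distributions, so a shift shared by most RNAs would not show, and a change common to all mRNAs cannot be measured.

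Of 22690 probe sets, 20393 had 1 gene symbol in the platform's annotation, 691 had several and were not named, and 64 manufacturer controls were kept apart. Differences, counts and list medians were computed in Python 3.11.15 with numpy 2.4.6, pandas 2.3.3 and statsmodels 0.14.6, and the calculation was tested on simulated data. Members and lists were chosen with earlier results of these data known, so no list is independent support for a pattern.

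Named genes were the 15 largest each way past 2-fold without a contrary probe set at the floor, members of the lists past 2-fold with up to 4 more by size, the nearest 2 on each side of each 2-fold edge, Npm1, Y-linked genes and Xist. Named outside this rule, after their values were seen, were the remaining genes past 2-fold, the printed start windows and a few list members given as contrast. Alternatives were other probe set rules, floors, scalings and fold thresholds. Start windows come from RefSeq (GRCm38.p6). Precision is limited by the number of arrays.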

Additional observations from a re-analysis of the deposited data

Results flagged for a closer look

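With 1 array a group no sample could be set against others of its group. Genes named in the text whose difference had opposite signs under the 2 genotype labels, with at least 1 of them larger than the 0.24 by which probe sets of a gene disagree, were singled out, and the difference between labels was not tested. Atf3 was at 0.63 in polysome minus total under the heterozygote and -0.11 under the wild-type label, from values near the floor. Nnt was at 0.69 and -0.16, with 0.20 and -0.33 at its other probe set. Meg3 was at 0.25 and -0.10. In the other direction Ldhb was at -0.46 and 0.017, H2-D1 at -0.28 and 0.078, Tubb3 at -0.26 and 0.10, and Rpl14 at -0.14 and 0.43.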

How the results depend on the processing

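The genes higher by 2-fold or more under the heterozygote label numbered 29, and 51 with no floor, 10 with a stricter floor of 9.33, the 75th percentile, and 11 where both heterozygote arrays had to reach the floor. The lower genes numbered 26, and 44, 9 and 11 under the same changes. At 1.5-fold there were 161 higher and 97 lower, and at 3-fold 7 and 8. Centring each array, or removing a loess trend on level (span 0.3), gave 41 lower genes in each case. All other counts stayed within 1.5 times. Of 441 list medians under alternatives 437 moved little and 4 moved, and of 2008 values for named genes 1978 moved little and 30 moved; 0 of either changed sign past the size at which a value was called. Centring moved the median gene from 0.07 to -0.03. No replicate could be left out, since each group has 1 array. A fit of fraction with the genotype label as a block, which would leave 1 residual degree of freedom over the 4 arrays, was not run, since it is a comparison over both labels. Near the floor, values are limited by signal.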
